A study of Mus musculus with 8 samples.

Results

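Tnfrsf9 and Kit are 2 of the 28692 genes in a single-cell count matrix of endothelial cells from mouse melanomas. Tnfrsf9 encodes 4-1BB (CD137), a receptor of the tumour necrosis factor receptor superfamily, and Kit encodes the receptor tyrosine kinase for stem cell factor. Both were chosen by their measured UMIs: earlier summaries of the same cells had placed them on tip-like blood endothelium. Their levels across sorts and clusters, their co-detection and their ties to tip genes are therefore a description. Per the labels, 10 C57BL/6N mice carried transplanted fragments of MT-ret melanoma, and flow cytometry of the tumours gave a sort of 10000 blood endothelial cells (the BEC sort) and another of 10000 lymphatic ones (the LEC sort). The cells of each sort went into 4 10x Chromium 3′ v2 libraries, in which each captured RNA molecule carries a unique molecular identifier (UMI). Animals were pooled, no treatment was compared, and the column names of the matrix give the sort but no library or animal. Each sort is therefore 1 sample, no comparison below has a replicate check, and all intervals are 95% and cover counting error only. The matrix holds 3228 cells of the BEC sort with a median of 19416 UMIs per cell and 4407 cells of the LEC sort with a median of 11000 UMIs per cell.

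4-1BB is best known as a co-stimulatory receptor of activated T cells that signals through TRAF adaptor proteins to NF-kB after binding its ligand Tnfsf9. KIT is best known on haematopoietic progenitors, mast cells and melanocytes, and its ligand is stem cell factor (Kitl). Tip cells lead vascular sprouts, respond to VEGF and carry the Notch ligand Dll4.

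Tnfrsf9 (ENSMUSG00000028965.13) lies at chr4:150914562-150946102 on the plus strand of GRCm38 in GENCODE M21, and Kit (ENSMUSG00000005672.12) at chr5:75574916-75656722 on the plus strand. Their promoter windows are shown because the 2 genes go with many of the same genes below. Each window runs from 250 bases before to 50 bases after an annotated start and comes from RefSeq on GRCm38.p6. Capitals mark every match to 8 motifs searched on both strands. The Tnfrsf9 windows are chr4:150919905-150920204 and chr4:150927749-150928048, and the Kit window is chr5:75574737-75575036. A further Kit window that overlaps nearly all of it is not printed.

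Tnfrsf9 first window: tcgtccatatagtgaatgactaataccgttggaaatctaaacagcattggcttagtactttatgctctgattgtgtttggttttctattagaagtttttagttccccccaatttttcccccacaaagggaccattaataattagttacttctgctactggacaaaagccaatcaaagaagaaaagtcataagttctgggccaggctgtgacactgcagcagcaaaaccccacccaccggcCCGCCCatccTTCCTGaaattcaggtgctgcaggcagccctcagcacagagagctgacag

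Tnfrsf9 second window: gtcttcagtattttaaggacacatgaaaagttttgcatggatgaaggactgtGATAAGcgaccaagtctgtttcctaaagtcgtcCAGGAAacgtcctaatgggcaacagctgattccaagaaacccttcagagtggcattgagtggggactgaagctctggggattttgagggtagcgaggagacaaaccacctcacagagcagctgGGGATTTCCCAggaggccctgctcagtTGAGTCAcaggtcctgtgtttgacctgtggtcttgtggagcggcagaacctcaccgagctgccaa

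Kit window: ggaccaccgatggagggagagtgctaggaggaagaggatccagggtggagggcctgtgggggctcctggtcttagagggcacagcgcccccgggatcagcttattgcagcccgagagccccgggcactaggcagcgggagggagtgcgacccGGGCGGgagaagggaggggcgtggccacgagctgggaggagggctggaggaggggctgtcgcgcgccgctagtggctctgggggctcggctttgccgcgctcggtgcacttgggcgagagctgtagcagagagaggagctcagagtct

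The second Tnfrsf9 window held an NF-kB-like match (GGGA, any 4 bases, then CC, read here as GGGATTTCCC and matched at 1 place on both strands) and an AP-1 match (TGANTCA). Of 32851 mouse promoter windows of this length, 20.7% held the NF-kB-like letters and 7.81% the AP-1 letters. The same window had a GATA match (GATAAG, in 7.44% of windows), an ETS match (CAGGAA, in 30.6%) and an RBPJ match (TGGGAA, in 25.6%) that overlaps the NF-kB-like one. The first Tnfrsf9 window had an ETS match and a GC box (GGGCGG, in 35.7%), and the Kit window had a GC box, the only searched motif found for both genes. The core of the hypoxia response element (ACGTG, in 19.6%) and the TATA box (TATAAA, in 13.6%) were not among the letters of these windows. The GC content was 45.3% and 51.0% in the Tnfrsf9 windows and 69.0% in the Kit window, and the median of all windows was 52.7%. A match describes the letters and does not show that a factor binds.

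Camta1 overlaps Tnfrsf9 on the opposite strand, and the sources used here do not say whether counting used the strand. Camta1 was at 63.3 CPM (UMIs of the gene per 1000000 UMIs) in the BEC sort and 58.4 CPM in the LEC sort, and at 59.0 CPM in cells with Tnfrsf9 and 61.7 CPM in cells without it. These are counts of the whole Camta1 gene, and the part of reads from the overlap in the Tnfrsf9 counts was not tested. Kit overlaps no annotated gene. Its neighbour Kdr, the main VEGF receptor, was at 392 CPM in the BEC sort and 169 CPM in the LEC sort.

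Both genes were higher in BEC than in LEC. Tnfrsf9 had 9646 UMIs in the BEC sort, or 135 CPM (133 to 138), and 753 UMIs in the LEC sort, or 12.7 CPM (11.8 to 13.6), a ratio of 10.6 (9.89 to 11.5). Kit had 1334 UMIs in the BEC sort, or 18.7 CPM (17.7 to 19.7), and 92 UMIs in the LEC sort, or 1.55 CPM (1.25 to 1.90), a ratio of 12.1 (9.75 to 15.1). Both members were at least 2-fold higher in BEC, as were 8.35% of the 8307 genes that reached 10 CPM in either sort; 11.1% were that much higher in LEC. On the log2 scale with 1 CPM added, the differences of 3.31 for Tnfrsf9 and 2.95 for Kit ranked 114 and 157 among those genes.

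The ligands differed in opposite directions. Tnfsf9, the 4-1BB ligand, had 2.03 CPM in BEC, against 7.37 CPM in LEC, a log2 difference of -1.46. Kitl, the KIT ligand, had 48.1 CPM in BEC, against 6.39 CPM in LEC, a log2 difference of 2.73. Only Kitl was higher in the sort in which its receptor was higher.

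A UMI of Tnfrsf9 was found in 32.0% of BEC-sort cells and 2.90% of LEC-sort cells, and a UMI of Kit in 15.1% of BEC-sort cells and 0.885% of LEC-sort cells. Because BEC-sort cells were deeper, every cell was also thinned at random to 5000 UMIs, and no cell was too shallow for this. Tnfrsf9 was then found in 19.6% of BEC-sort cells (18.3 to 21.0%) and 1.95% of LEC-sort cells (1.56 to 2.40%). Kit was then found in 6.88% of BEC-sort cells (6.03 to 7.81%) and 0.454% of LEC-sort cells (0.277 to 0.700%). From here on, a cell with a UMI of a gene after thinning is called positive for it. In the LEC-like cells of the LEC sort, a type set beside BEC as background, 0.876% were positive for Tnfrsf9 and 0.292% for Kit. Their median depth was 10366 UMIs before thinning, against 19511 UMIs in BEC-like cells of the BEC sort.

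Tnfrsf9 was concentrated in few cells. Of the BEC-sort endothelial cells 80.1% had no UMI of it, where a Poisson distribution with the same mean leaves 55.6%. The 10% of cells with the most held 81.0% of its UMIs. Its ratio of variance to mean was 5.55, which ranked 8 among 1135 genes of like mean, with a median of 1.61. Kit was found in fewer cells, with no UMI in 93.0%, where a Poisson distribution leaves 90.0%, so that 10% of cells hold all of its UMIs. Its ratio was 2.05, which ranked 76 among 2238 genes of like mean, with a median of 1.55. The means of the 2 genes were 0.586 and 0.106 UMIs per cell, and their ratios are therefore read only against genes of like mean. In the BEC sort 119 cells had 5 or more thinned UMIs of Tnfrsf9, and 5 cells had as many of Kit.

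**Figure D1:**
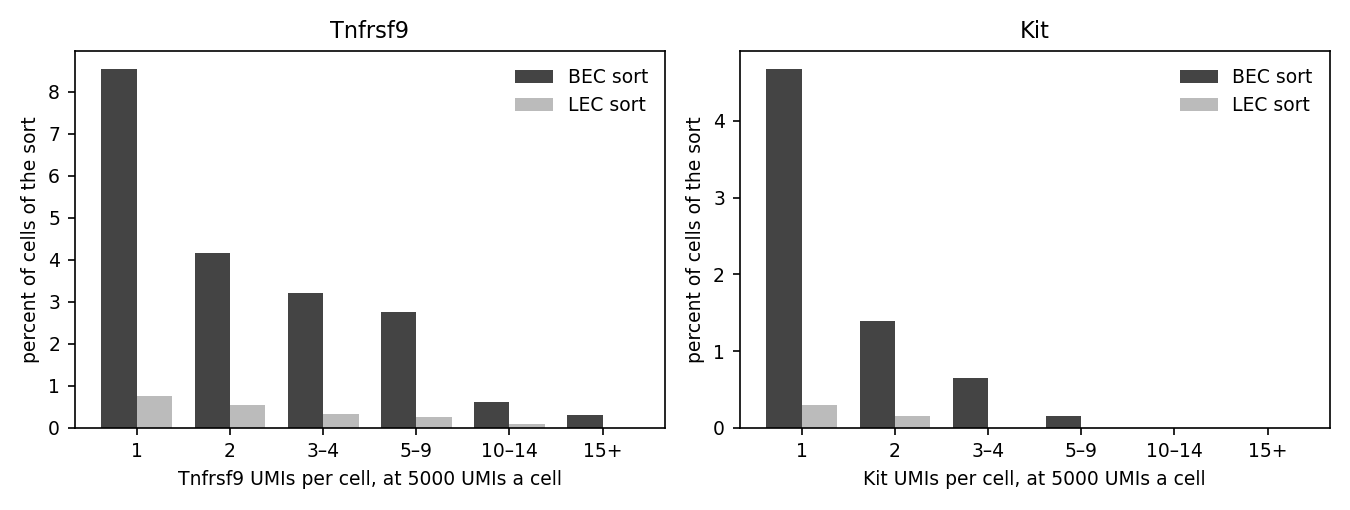
Percent of cells of the BEC sort (dark bars) and the LEC sort (light bars) by the number of Tnfrsf9 UMIs (left) and Kit UMIs (right) at 5000 UMIs a cell; cells without a UMI are not drawn and the vertical axes differ. For Tnfrsf9 the BEC bars go on to 15 or more UMIs, with 0.310% of cells there; for Kit they end at 5 to 9 UMIs, with 0.155% of cells.

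Clustering both sorts jointly, with both members left out of the variable genes, gave 17 clusters. Clusters 3, 5, 6, 11, 12 and 15 carried 12 of 12 BEC markers in at least 50% of their cells and are called BEC-like. Cluster 8 carried the 12 markers too, but was led by the venous genes Ackr1, Sele, Selp and Vwf together with Tagln, a smooth muscle gene, and was left unnamed. The LEC sort held 93 BEC-like cells, and 34 barcodes occurred in both sorts. Cluster 11 was led by Chga, AA467197, Kcna5 and Tnfrsf9 itself, followed by Lcp2 and Gpc4, with the tip genes Apln and Trp53i11 further down. Cluster 5 was led by Kcnj8, Celf4, Kcne3 and Uchl1, and cluster 12 by cell cycle genes.

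Tnfrsf9 in the BEC sort was highest in cluster 11, at 433 CPM (418 to 450) with 41.1% of 282 cells positive. Cluster 5 followed at 232 CPM (224 to 239) with 30.6% of 650 cells positive. The venous-marked cluster 8 came next at 120 CPM (113 to 128) with 25.3% of 399 cells positive. Each interval lay above the next, so these 3 levels differed beyond the counting error of UMIs. By the share of positive cells, cluster 11 (35.3 to 47.1%) lay above cluster 5 (27.1 to 34.3%). Cluster 5 then overlapped cluster 8 (21.1 to 29.9%). Cluster 12 was at 96.8 CPM (90.1 to 104), of which 1 cell held 16.8%, and cluster 6, led by Npr3, Vegfc and Dkk2, at 68.4 CPM (63.7 to 73.3). Cluster 3, led by Ramp3 and Slco2a1, was at 42.0 CPM (39.1 to 45.1), and cluster 15, led by Aqp7 and Timp4 with the arterial gene Gja5, at 20.7 CPM (15.2 to 27.5). The CPM intervals of these 4 did not overlap either, but all these CPM intervals count UMIs and leave out the spread between cells.

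Kit had the same clusters at the top and a flatter order below. It was at 51.4 CPM (46.0 to 57.2) in cluster 11, with 18.1% of cells positive, and at 35.8 CPM (32.9 to 39.0) in cluster 5, with 14% positive. Clusters 15, 6, 8 and 12 followed at 13.7, 11.5, 11.3 and 10.0 CPM with overlapping intervals, and cluster 3 was lowest at 6.14 CPM (5.05 to 7.40). Cluster 8 was high for Tnfrsf9 and low for Kit, with 3.01% of its cells positive for Kit. Under another random start of the clustering the highest cluster held 549 cells, at 395 CPM for Tnfrsf9 and 55.6 CPM for Kit, so the edge of cluster 11 is not fixed.

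The tip-like label held only in part. The 20 genes of the tip list summed to 21473 CPM in cluster 6, 19455 CPM in cluster 5 and 14450 CPM in cluster 11 of the BEC sort. Igfbp3, a leading gene of cluster 6, supplied 45.3% of the tip UMIs, and without it the sums were 9898 CPM in cluster 6, 11604 CPM in cluster 5 and 9633 CPM in cluster 11. Cluster 6 was first of 7 by the whole list and second without Igfbp3, and ranked 5 for the Tnfrsf9 level and 4 for the Kit level. The 10 hypoxia genes summed to 1405 CPM in cluster 11, 851 CPM in cluster 5 and 547 CPM in cluster 6, an order that both members shared over these 3 clusters. Tnfrsf9 did not share the order over all 7 clusters. Cluster 15 ranked 3 by the hypoxia sum, at 819 CPM, but 7 for the Tnfrsf9 level and 3 for the Kit level. Cluster 8 ranked 4 by the hypoxia sum, at 727 CPM, and 3 for the Tnfrsf9 level and 5 for the Kit level.

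In the LEC sort the LEC-like clusters had 0.819 to 5.11 CPM of Tnfrsf9 and 0 to 2.55 CPM of Kit. Unnamed cluster 10, with 328 cells led by Npy, Nipal1, Pgf and Hk2, stood above them for Tnfrsf9 at 54.6 CPM (47.8 to 62.1), with 9.15% of cells positive. For Kit it was at 4.23 CPM (2.51 to 6.69), which overlapped the 2.55 CPM (1.62 to 3.83) of LEC-like cluster 4. The 93 BEC-like cells carried 43.6% of the Tnfrsf9 UMIs of the LEC sort, at 181 CPM. When each sort kept its own cell type and its unnamed cells (BEC-like in one, LEC-like in the other), Tnfrsf9 had 138 CPM in BEC, against 7.50 CPM in LEC, and its log2 difference was 4.03 in place of 3.31. With the 93 BEC-like cells put back into LEC, so that only melanocytic-like and stromal-like cells and the LEC-like cells of the BEC sort were left out, LEC had 13.8 CPM and the difference was 3.23. The rise to 4.03 thus came with leaving out those 93 cells.

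**Figure D2:**
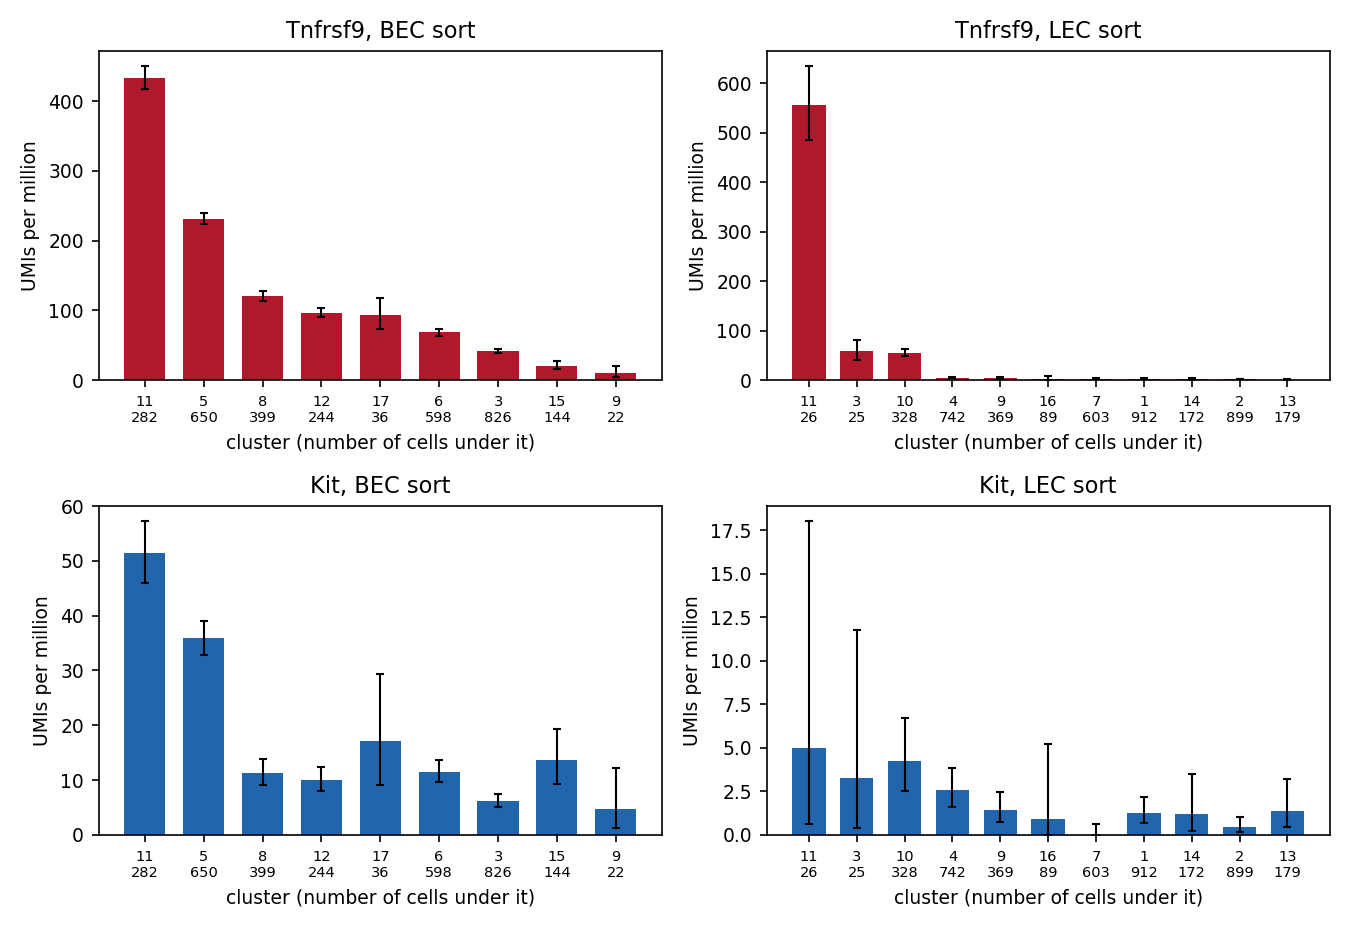
CPM of Tnfrsf9 (top) and Kit (bottom) in clusters of the BEC sort (left) and the LEC sort (right), with exact 95% Poisson intervals, in order of the Tnfrsf9 level and with the number of cells under each cluster; the vertical axes differ. Clusters 11 and 5 lead both genes in the BEC sort, and cluster 8 is high for Tnfrsf9 only; in the LEC sort cluster 11 is 26 BEC-like cells.

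The 2 genes were found together more often than their separate shares give. Of 3146 BEC-sort endothelial cells 627 were positive for Tnfrsf9, 220 for Kit and 74 for both, against 43.8 if they were unrelated. Kit was found in 11.8% of Tnfrsf9-positive cells (9.38 to 14.6%) and 5.80% of Tnfrsf9-negative cells (4.92 to 6.78%), a difference of 6.01 percentage points (3.39 to 8.93). Another random thinning gave 3.79 points, thinning to 2000 UMIs 2.46 points and no thinning 9.13 points, so the direction held and the size did not. Tnfrsf9 was found in 33.6% of Kit-positive cells and 18.9% of Kit-negative cells.

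Kit was more frequent where Tnfrsf9 was high. It was found in 16.8% of 119 cells with 5 or more Tnfrsf9 UMIs, 15.3% of 235 cells with 2 to 4, 6.59% of 273 cells with 1 and 5.80% of 2519 cells with none. Cells with 1 UMI did not differ from cells with none beyond counting error. The median depth before thinning was 19965 UMIs in cells with both, 22145 with Tnfrsf9 only, 17033 with Kit only and 18971 with neither. Cells with both lay inside that range. No doublets were removed, and their part in the co-detection was not tested.

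Within clusters the co-detection was uneven. In cluster 11 Kit was found in 21.6% of Tnfrsf9-positive and 15.7% of Tnfrsf9-negative cells, a difference of 5.89 points (-3.69 to 15.9). In cluster 5 the shares were 18.1% and 12.2%, a difference of 5.90 points (-0.213 to 12.6). Both intervals include 0. Cluster 6 alone of the 7 clusters had an interval above 0, with 11.3% of Tnfrsf9-positive and 3.23% of Tnfrsf9-negative cells (difference 8.04 points, 1.49 to 17.9). In cluster 8 the shares were 2.97% and 3.02%. In cluster 3 the order was turned round, with 1.16% of Tnfrsf9-positive and 3.38% of Tnfrsf9-negative cells and 1 cell with both where 2.71 would be found if unrelated. In cluster 12 no cell had both, where 1.89 would be, and in cluster 15 1 cell had both, where 0.278 would be. Thus 4 of 7 clusters had more cells with both than the separate shares give, and 3 did not. Pearson's r between the log-scaled levels of the 2 genes over 3146 cells, which share a sort, libraries and differences in depth, was 0.152, and 0.0818 after centring within clusters. In the LEC sort 3 cells were positive for both, against 0.390 if unrelated, and Kit was found in 3.49% of 86 Tnfrsf9-positive and 0.393% of 4321 Tnfrsf9-negative cells (difference 3.09 points, 0.322 to 9.47). All 3 were BEC-like cells. Among its LEC-like and unnamed cells none was positive for both, but only 0.221 would be if the genes were unrelated, so these cells are too few to show an excess or its absence.

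Markers of T and NK cells were at or near 0, and so were all mast cell markers but 1. The T and NK cell list summed to 0 CPM in Tnfrsf9-positive and 0.715 CPM in Tnfrsf9-negative endothelial cells of the BEC sort, with 6 of 8 markers at 0 in both. Of 8 mast cell markers 7 were at 0 in Kit-positive and Kit-negative cells, and the other, Gata2, which endothelium also expresses, was at 26.4 CPM in Kit-positive and 48.1 CPM in Kit-negative cells. The haematopoietic progenitor list, which shares Cd34 with the BEC markers, summed to 1825 CPM in Kit-positive and 2132 CPM in Kit-negative cells. Together 5 markers of leukocytes at large had 13.1 CPM in Tnfrsf9-positive and 4.21 CPM in Tnfrsf9-negative cells (ratio interval 2.02 to 4.76), with 2 of them at 0 in both. They had 12.7 CPM in Kit-positive and 5.47 CPM in Kit-negative cells (1.22 to 4.14). The 8 melanocytic markers summed to 44.5 CPM in Kit-positive and 32.8 CPM in Kit-negative cells. The part of these marker levels in the results was not tested.

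Of the 20 tip genes, 5 were at least 1.5-fold higher in Tnfrsf9-positive than in Tnfrsf9-negative cells and none was that much lower. Of the 7331 genes that reached 10 CPM, 1.9% were that much higher and 3.38% that much lower. The median log2 difference was 0.23 for the list and -0.04 for all genes. Pgf, a ligand of the VEGF receptor Flt1, was at 161 CPM in Tnfrsf9-positive and 23.5 CPM in Tnfrsf9-negative cells (6.87-fold, 5.94 to 7.95). Adm, the vasoactive peptide adrenomedullin, was at 391 CPM in positive and 84.3 CPM in negative cells (4.64-fold, 4.27 to 5.04). Trp53i11 was 2.42-fold, Apln (the peptide apelin) 2.28-fold and Angpt2 (a TIE2 ligand) 1.65-fold higher. Pgf, Adm, Trp53i11 and Apln passed 2-fold and no tip gene was 2-fold lower, beside 0.532% of all genes that were 2-fold higher and 0.641% that were 2-fold lower. The Notch ligand Dll4 was not among them, at 241 CPM in positive and 283 CPM in negative cells (0.849-fold, 0.784 to 0.919), nor was the basement membrane protein Nid2, at 116 CPM in positive and 113 CPM in negative cells.

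Over all BEC-sort endothelial cells Kit went with more of the list. In Kit-positive over Kit-negative cells 10 of 20 tip genes were at least 1.5-fold higher and none was that much lower, where 5.99% of all genes were that much higher and 7.78% that much lower. At 2-fold 5 were higher and none lower, beside 0.982% and 2.09% of all genes. The median log2 difference was 0.58 for the list and -0.02 for all genes. Pgf was at 188 CPM in Kit-positive and 40.7 CPM in Kit-negative cells (4.63-fold, 3.93 to 5.43), and Adm at 395 CPM in positive and 127 CPM in negative cells (3.12-fold, 2.81 to 3.47). The chemokine receptor Cxcr4 was at 60.0 CPM in Kit-positive and 19.2 CPM in Kit-negative cells (3.12-fold, 2.35 to 4.10). For Tnfrsf9 the Cxcr4 ratio was 1.41 (1.09 to 1.80). Nid2 was at 224 CPM in Kit-positive and 105 CPM in Kit-negative cells (2.13-fold, 1.85 to 2.44), where its ratio for Tnfrsf9 was 1.03 (0.915 to 1.16). These intervals do not overlap between the 2 genes. The mitochondrial share of UMIs was also higher with Kit: its median was 6.16% in Kit-positive and 4.13% in Kit-negative cells of cluster 6, 4.86% in positive and 3.53% in negative cells of cluster 5, and 3.63% in positive and 1.93% in negative cells of cluster 11. For Tnfrsf9 these medians were 3.49% in positive and 4.21% in negative cells of cluster 6, 3.44% in positive and 3.69% in negative cells of cluster 5, and 2.25% in positive and 2.06% in negative cells of cluster 11. The part of this sign of RNA quality in the Kit differences was not tested. Lamb1, Mcam and Pdgfb were also at least 1.5-fold higher for Kit and not for Tnfrsf9, at 1.61-, 1.56- and 1.55-fold, whereas Rgcc, a capillary gene on the list, was at 0.847-fold.

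The shares of cells gave a like picture. Adm was found in 42.7% of Tnfrsf9-positive and 17.0% of Tnfrsf9-negative cells, and in 45% of Kit-positive and 20.4% of Kit-negative cells. Dll4 was found in 52.2% of Tnfrsf9-positive and 56.6% of Tnfrsf9-negative cells (-4.42 points, -8.86 to 0.0130). For Kit it was found in 63.2% of positive and 55.1% of negative cells (8.06 points, 1.07 to 14.7). Dll4 thus lay on opposite sides for the 2 genes, with the Tnfrsf9 interval just touching 0. Seen from the other side, Tnfrsf9 was found in 47.4% of Pgf-positive and 18.0% of Pgf-negative cells, and Kit in 21.5% of Pgf-positive and 5.96% of Pgf-negative cells.

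**Figure D3:**
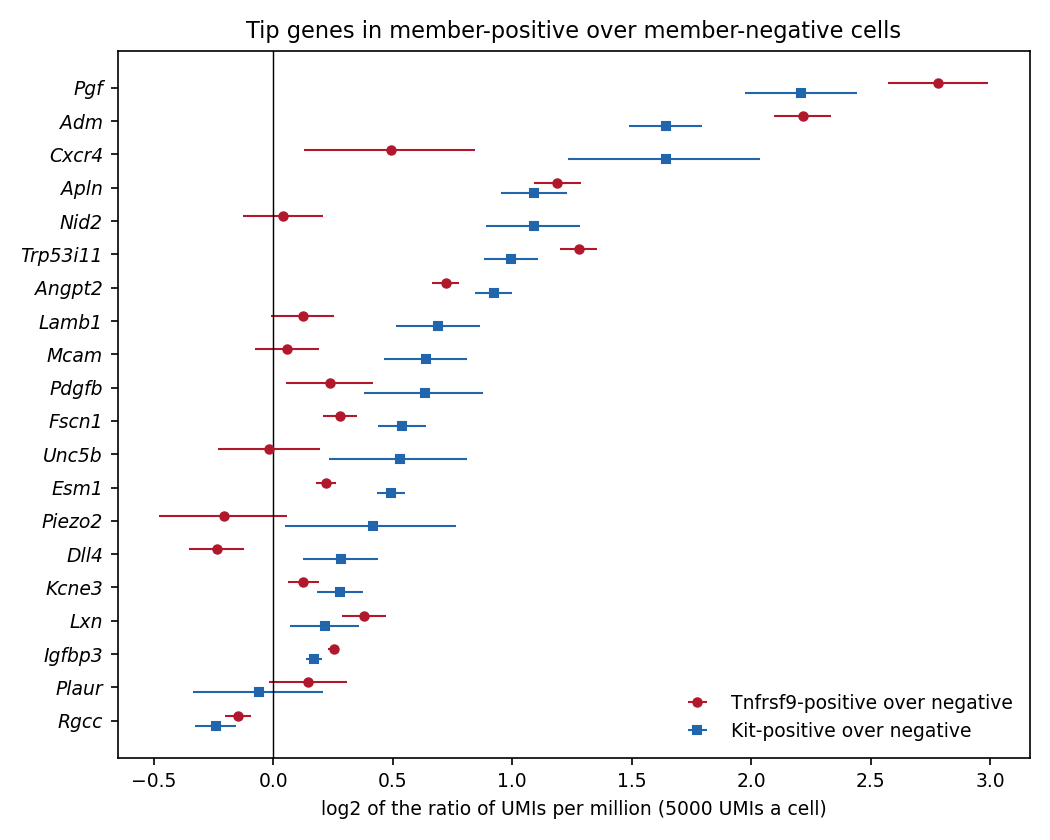
Log2 of the ratio of CPM for 20 tip genes, with exact 95% intervals, in Tnfrsf9-positive over Tnfrsf9-negative cells (circles) and Kit-positive over Kit-negative cells (squares) among 3146 BEC-sort endothelial cells at 5000 UMIs a cell. Pgf and Adm lie to the right for both genes; Cxcr4 and Nid2 lie further right for Kit, at ratios of 3.12 and 2.13.

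Summed over the list, tip genes were at 15774 CPM in Tnfrsf9-positive and 12689 CPM in Tnfrsf9-negative cells, a log2 difference of 0.31. They were at 16904 CPM in Kit-positive and 13033 CPM in Kit-negative cells, a log2 difference of 0.38. Without Igfbp3 the differences were 0.36 for Tnfrsf9 and 0.53 for Kit. By the whole list, the differences within cluster 11 were 0.66 for Tnfrsf9 and 0.11 for Kit. Within cluster 5 they were 0.29 for Tnfrsf9 and 0.18 for Kit, and within cluster 3 they were 0.23 and 0.10. Inside each of these clusters the tip sum thus went with Tnfrsf9 more than with Kit, unlike over all cells. By the median tip gene this did not hold in cluster 5, at 0.15 for Tnfrsf9 and 0.27 for Kit. Cluster 3 had medians of 0.13 for Tnfrsf9 and 0.12 for Kit. In cluster 6, first by the tip sum, the difference of sums for Tnfrsf9 was 0.11. In cluster 8 the tip sum was lower in Tnfrsf9-positive cells, as given below.

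When cells were ordered by their tip sum, the share positive for Kit climbed along 5 groups of cells, with 2.54, 6.32, 6.59, 8.96 and 10.7% of cells from the lowest to the highest. Tnfrsf9 had 19.7, 10.1, 19.0, 20.1 and 31.2%, and so did not climb throughout. Cluster 8, in which 25.3% of cells were positive for Tnfrsf9, had the lowest tip sum of the 7 clusters, at 2360 CPM. Along the hypoxia sum Tnfrsf9 had 13.6, 15.6, 17.6, 19.0 and 37.9% from the lowest to the highest group, and Kit had 3.97, 7.59, 7.03, 5.79 and 13.0%. For both genes the top hypoxia group stood above the other 4. Adm stands on both lists. Without the genes shared with the tip list, Tnfrsf9 had 15, 19.8, 20.04, 16.8 and 31.1% along the hypoxia sum, and Kit had 5.05, 8.11, 9.07, 6.93 and 8.13%. The top group then stood apart for Tnfrsf9 and not for Kit. With cluster 11 left out too, Tnfrsf9 had 14.7, 18.4, 19.6, 15.1 and 23.9%. The top group (20.3 to 27.8%) then overlapped group 2 (15.2 to 22.0%) and group 3 (16.0 to 23.6%). By the whole hypoxia list without cluster 11 the top group still stood above the others for Tnfrsf9, at 30.7% (26.5 to 35.1%). The median mitochondrial share of UMIs was 4.42% in the highest and 3.16% in the lowest group by the tip sum without hypoxia genes, and its part in the tip order was not tested.

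**Figure D4:**
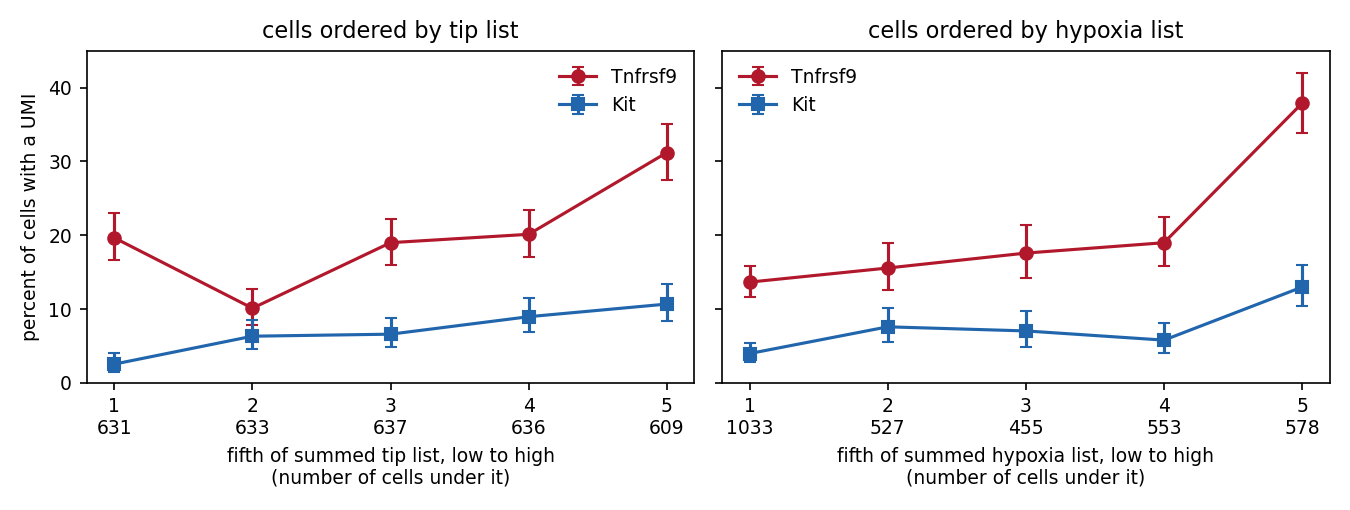
Percent of BEC-sort endothelial cells positive for Tnfrsf9 (circles) and Kit (squares), with exact 95% binomial intervals, in 5 groups of cells by the summed UMIs of the tip list (left) and the hypoxia list (right), low to high; ties in the sums make the groups unequal, and the number of cells stands under each. Tnfrsf9 reaches 31.2% in the highest tip group and 37.9% in the highest hypoxia group, and Kit 10.7% and 13.0%.

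Of the 10 hypoxia genes 7 were at 10 CPM or more, and 4 of these were at least 1.5-fold higher in Tnfrsf9-positive cells, with a median log2 difference of 0.76 beside -0.04 for all genes. Ankrd37, a target of the hypoxia-inducible factor HIF-1, was at 130 CPM in Tnfrsf9-positive and 34.7 CPM in Tnfrsf9-negative cells (3.73-fold, 3.25 to 4.28). Bnip3, a mitophagy gene, was at 30.6 CPM in positive and 11.8 CPM in negative cells (2.61-fold), Pdk1 was 1.74-fold higher, and Adm stands on both lists. Egln3, a prolyl hydroxylase that acts on HIF, was under 10 CPM over all cells, and was at 28.1 CPM in positive and 2.78 CPM in negative cells (10.1-fold, 6.76 to 15.4). Ddit4 was not higher, at 101 CPM in positive and 112 CPM in negative cells. For Kit 3 of the 7 were at least 1.5-fold higher and Ddit4 was lower, at 71.8 CPM in Kit-positive and 112 CPM in Kit-negative cells, with a median of 0.50. The summed list was at 1139 CPM in Tnfrsf9-positive and 595 CPM in Tnfrsf9-negative cells.

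Vessel-type lists differed between the 2 genes. Of 9 measured arterial genes 6 were at least 1.5-fold lower in Tnfrsf9-positive cells, where 3.38% of all genes were, with a median log2 difference of -0.72. The gap junction gene Gja4 was at 63.8 CPM in Tnfrsf9-positive and 279 CPM in Tnfrsf9-negative cells (0.228-fold, 0.197 to 0.263), and the ephrin Efnb2 at 53.9 CPM in positive and 94.7 CPM in negative cells. For Kit 4 of the 9 were lower, where 7.78% of all genes were, with a median of -0.18, and Efnb2 was at 103 CPM in Kit-positive and 85.4 CPM in Kit-negative cells. Of 6 venous genes none passed 1.5-fold for Tnfrsf9, with a median of 0.27, and 3 were lower for Kit, with a median of -0.49. Ackr1, the atypical chemokine receptor of venules, was at 183 CPM in Tnfrsf9-positive and 134 CPM in Tnfrsf9-negative cells, but at 81.8 CPM in Kit-positive and 149 CPM in Kit-negative cells. Of 9 cell cycle genes none passed 1.5-fold for Tnfrsf9 and 5 were lower for Kit. Venous-marked cluster 8 held 101 of 627 Tnfrsf9-positive cells (16.1%) and 12 of 220 Kit-positive cells (5.45%). Cluster 5 held the largest share of both, with 31.7% of Tnfrsf9-positive and 41.4% of Kit-positive cells. Cluster 11 held 18.5% of Tnfrsf9-positive and 23.2% of Kit-positive cells. Within cluster 8 the venous list summed to 2279 CPM in Tnfrsf9-positive and 2317 CPM in Tnfrsf9-negative cells, a ratio with an interval of 0.919 to 1.05, so the venous difference was not found there. The arterial list summed to 803 CPM in Tnfrsf9-positive and 1078 CPM in Tnfrsf9-negative cells of cluster 5, and to 605 and 628 CPM in those of cluster 11, where the ratio's interval of 0.840 to 1.11 includes 1.

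Few ligands, adaptors and targets of the receptors passed 1.5-fold over all BEC-sort endothelial cells. Kitl was at 39.6 CPM in Tnfrsf9-positive and 54.5 CPM in Tnfrsf9-negative cells, and at 60.0 CPM in Kit-positive and 50.9 CPM in Kit-negative cells (1.18-fold, 0.902 to 1.52). Of 10 measured 4-1BB signalling genes 1 was at least 1.5-fold higher in Tnfrsf9-positive cells and 1 lower: the adaptor Traf1 was at 30.3 CPM in positive and 17.5 CPM in negative cells, and the kinase Map3k14 at 6.38 CPM in positive and 11.3 CPM in negative cells. Of 18 KIT signalling genes none passed 1.5-fold for Tnfrsf9. For Kit 1 of the 18 did, the ubiquitin ligase Cbl, at 36.4 CPM in Kit-positive and 23.9 CPM in Kit-negative cells. Of 11 NF-kB targets, Ccl2 was 4.39-fold higher and Tnfaip2 0.539-fold in Tnfrsf9-positive cells, but 1 cell held 25.5% of the Ccl2 UMIs. For Kit 2 of the 11 were at least 1.5-fold higher, Ccl2 at 7.85-fold and the NF-kB subunit Relb at 1.82-fold, and Tnfaip2 was lower at 0.498-fold. Inside clusters the lists were uneven. In cluster 11 all 5 measured KIT signalling genes were higher in Kit-positive cells and 2 of them by 1.5-fold, where 10.9% of all genes were. Their list summed to 1027 CPM in Kit-positive and 703 CPM in Kit-negative cells (ratio interval 1.27 to 1.68), and the NF-kB targets to 1612 CPM in positive and 1067 CPM in negative cells (1.35 to 1.69). In cluster 5 the KIT signalling list was at 1119 CPM in Kit-positive and 1115 CPM in Kit-negative cells (0.912 to 1.10). The NF-kB targets there were at 1380 and 1083 CPM (1.17 to 1.39). In cluster 3, with 26 Kit-positive cells, the KIT signalling list was at 1015 and 1071 CPM (0.792 to 1.13). The NF-kB targets there were lower in Kit-positive cells, at 731 and 985 CPM (0.599 to 0.909). Ccl2, a chemokine that attracts monocytes, was 14.7-fold higher in Tnfrsf9-positive cells of cluster 5 and 10.6-fold higher in Kit-positive cells of cluster 11. It is part of the NF-kB sums above, at 212 CPM in Kit-positive and 19.9 CPM in Kit-negative cells of cluster 11. In cluster 5 it was at 127 CPM in Kit-positive and 38.3 CPM in Kit-negative cells. The part of single cells in these Ccl2 values was not tested. Among other receptor tyrosine kinases Fgfr1 was at 87.3 CPM in Kit-positive and 31.7 CPM in Kit-negative cells (2.75-fold, 2.18 to 3.43), and Igf1r was 2.41-fold higher. Of 8 other TNF receptor genes Tnfrsf23 was 1.79-fold higher and Cd40 0.496-fold in Kit-positive cells, and the co-inhibitory ligand Vsir was 2.53-fold higher in Tnfrsf9-positive cells.

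Cells positive for both genes carried the most of these genes. The tip list summed to 20811 CPM in cells with both, 15100 CPM with Tnfrsf9 only, 14923 CPM with Kit only and 12552 CPM with neither. In cells with both over neither 12 of the 19 tip genes that reached 50 CPM were 1.5-fold higher or more and none was that much lower, where 6.26% of 3035 genes were higher and 11.9% lower. At 2-fold 6 were higher and none lower, beside 2.24% and 3.66% of those genes. Pgf was at 341 CPM in cells with both and 18.1 CPM in cells with neither (18.8-fold, 15 to 23.5). The matrix protein Fn1 was at 581 CPM with both and 52.9 CPM with neither (10.98-fold). The hypoxia list summed to 1719 CPM in cells with both, 1061 CPM with Tnfrsf9 only, 778 CPM with Kit only and 583 CPM with neither. These sums rest on 74 cells with both. Of these 74 cells 36 lay in cluster 5 and 25 in cluster 11, whereas 16.7 and 5.90% of the 2373 cells with neither lay there. Macrophage markers were at 18.9 CPM in cells with both and 4.21 CPM with neither (ratio interval 1.72 to 9.95), and markers of leukocytes at large at 18.9 CPM with both and 3.88 CPM with neither (1.86 to 10.9). In cells with both, each sum was 7 UMIs, the macrophage one in 3 cells with 6 of 8 markers at 0 and the leukocyte one in 4 cells with 4 of 5 markers at 0. Doublets were not removed, and the part of these cells in the sums was not tested.

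Cells with 1 gene only differed in other genes. In Tnfrsf9-only over Kit-only cells 2.6% of 3035 genes were at least 1.5-fold higher and 2.9% lower, and at 2-fold 0.461% were higher and 0.297% lower. Of 19 tip genes none was 1.5-fold higher and 3 were lower. The galectin Lgals3 was at 86.1 CPM in Tnfrsf9-only and 13.7 CPM in Kit-only cells (6.28-fold, 3.36 to 13.3), and the cytokine Il6 at 62.2 CPM in Tnfrsf9-only and 13.7 CPM in Kit-only cells (4.54-fold). Ackr1 was 2.99-fold and Ankrd37 3.35-fold higher in Tnfrsf9-only cells. Ackr1 and Il6 are leading genes of cluster 8, which held 17.7% of 553 Tnfrsf9-only and 6.16% of 146 Kit-only cells, and the part of this in their ratios was not tested. Chga, a granin, was at 95.1 CPM in Tnfrsf9-only and 352 CPM in Kit-only cells (0.270-fold, 0.227 to 0.322). The receptor Notch4 was at 70.2 CPM in Tnfrsf9-only and 163 CPM in Kit-only cells, and Nid2 and Efnb2 were likewise lower in Tnfrsf9-only cells, at 0.470- and 0.454-fold.

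Genes that went with each member were ranked by Pearson's r of log-scaled levels over the same 3146 cells, among 3024 genes. The highest for Tnfrsf9 were Adm (r = 0.420), Angptl4 (0.389), AA467197 (0.358) and Ankrd37 (0.344), followed by Pkm (0.322), Trp53i11 (0.322) and Aldoa. Pkm and Aldoa are glycolytic enzymes, and Angptl4 is a secreted lipase inhibitor induced by hypoxia. For Kit the highest were Pgf (0.251), Adm (0.242), Trp53i11 (0.238), Chst1 (0.230) and Smad1 (0.210). The 12 highest genes of each member had 5 in common, namely Adm, AA467197, Trp53i11, Pgf and Chst1. Plpp3 and Eng, a TGF-beta co-receptor, were among the 5 lowest of both, at -0.266 and -0.260 for Tnfrsf9 and -0.184 and -0.194 for Kit. At equal depth and within clusters, r of Adm with Tnfrsf9 was 0.382 and 0.353, and r of Pgf with Kit was 0.167 and 0.187. The cells share sort, libraries and clusters, so these values describe these cells only.

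**Figure D5:**
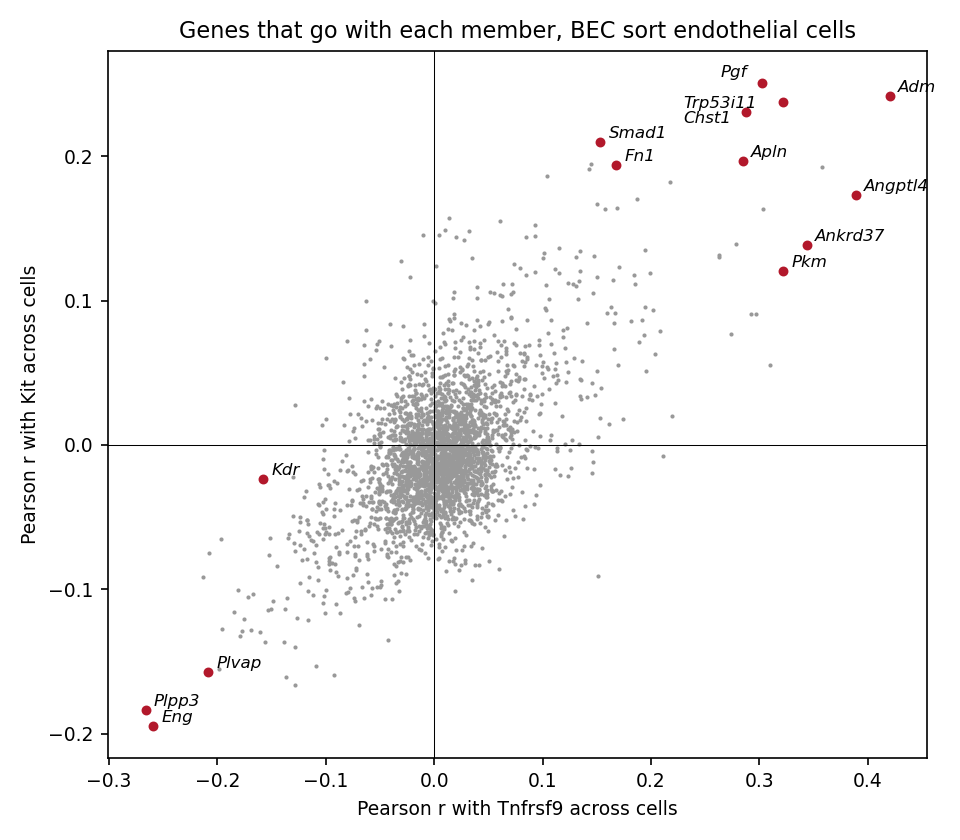
Pearson's r of each of 3024 genes with Tnfrsf9 (horizontal) and with Kit (vertical) over 3146 BEC-sort endothelial cells; red points are genes named in the plot. Adm, Pgf, Trp53i11 and Apln lie high for both, Angptl4, Ankrd37 and Pkm lie further out for Tnfrsf9, and Eng and Plpp3 lie lowest for both.

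Inside cluster 11 Tnfrsf9 went with hypoxia genes. Of 7 measured hypoxia genes 6 were at least 1.5-fold higher in the 116 Tnfrsf9-positive than in the 166 Tnfrsf9-negative cells, and of 18 tip genes 10 were, where 7.70% of 2883 genes were. The hypoxia list summed to 2278 CPM in positive and 795 CPM in negative cells. Egln3 was at 116 CPM in positive and 8.43 CPM in negative cells (13.7-fold, 6.29 to 35.4), and Slc2a1, the glucose transporter GLUT1, at 305 CPM in positive and 55.4 CPM in negative cells (5.51-fold). Along 5 groups by the hypoxia sum in this cluster 18.3, 21.0, 33.3, 52.6 and 83.6% of cells were positive for Tnfrsf9, from the lowest to the highest. Kit had 8.33, 11.3, 27.1, 21.1 and 25.5% and levelled off after the middle group. Macrophage markers were at 20.7 CPM in Tnfrsf9-positive and 2.41 CPM in Tnfrsf9-negative cells of the cluster (ratio interval 1.91 to 79.0), which is 12 UMIs in 5 cells and 2 UMIs in 2 cells. Markers of leukocytes at large were at 39.7 CPM in positive and 15.7 CPM in negative cells (1.23 to 5.44), in 10 cells each. Of 8 macrophage markers 6 were at 0 in positive and 7 in negative cells, and of the 5 leukocyte markers 4 in positive and 3 in negative cells. The part of these cells in the hypoxia difference was not tested. The median depth before thinning was 21568 UMIs in Tnfrsf9-positive and 14993 UMIs in Tnfrsf9-negative cells of the cluster, and the part of this in the result was not tested.

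The pattern did not hold in every cluster. In cluster 8 the hypoxia list summed to 697 CPM in 101 Tnfrsf9-positive and 737 CPM in 298 Tnfrsf9-negative cells, and the tip list to 2236 CPM in positive and 2403 CPM in negative cells. In cluster 3 the hypoxia list summed to 537 CPM in 86 Tnfrsf9-positive and 485 CPM in 740 Tnfrsf9-negative cells (ratio interval 0.962 to 1.27). For Kit it was at 485 CPM in positive and 490 CPM in negative cells of cluster 3 (0.757 to 1.27). In cluster 5 Ankrd37 was 3.92-fold and Adm 3.04-fold higher in Tnfrsf9-positive cells. In cluster 6 Adm was at 464 CPM in 25 Kit-positive and 72.6 CPM in 573 Kit-negative cells (6.39-fold, 4.69 to 8.59).

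In LEC-sort endothelial cells 62 of 3935 were positive for Tnfrsf9. Of 7 hypoxia genes 6 were at least 1.5-fold higher in them than in the 3873 Tnfrsf9-negative cells, where 7.002% of 3099 genes were, and Ndufa4l2, a hypoxia-induced mitochondrial gene, was at 506 CPM in positive and 50.5 CPM in negative cells (10.0-fold). Within cluster 10, which holds 30 of the 62, none of 9 hypoxia genes was that much higher, and the list summed to 5780 CPM in positive and 5687 CPM in negative cells. The difference seen over all LEC-sort endothelial cells was thus not found inside cluster 10.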

How the data were processed

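Single-cell RNA was measured in a BEC sort and a LEC sort from tumours of pooled mice. The UMI count matrix was deposited by the authors and holds whole-number, unnormalised counts per gene and cell. Cell Ranger 2.1.1 and mm10 are named in the submitters' processing notes, and the sources used here do not say whether counting used the strand. The 4 libraries per sort cannot be told apart in the column names, so each sort was treated as 1 sample and no test was made. All deposited cells were kept, and no doublet caller was run. Levels are UMIs per 1000000 UMIs (CPM) with exact Poisson intervals, shares have exact Clopper-Pearson intervals, ratios have exact conditional binomial intervals and differences of shares have Newcombe intervals, all at 95% and for counting error only. Each cell was thinned to 5000 UMIs for shares, and comparisons of positive and negative cells used the thinned counts. Depth ran from 6968 to 99171 UMIs per cell in BEC and from 5288 to 49210 in LEC.

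Clustering used scanpy 1.11.5 (2000 variable genes, 30 principal components, 15 neighbours, Leiden resolution 1) without Tnfrsf9 and Kit. Endothelial cells of the BEC sort are those in BEC-like or unnamed clusters, and of the LEC sort those in LEC-like or unnamed clusters. Genes entered comparisons at 10 CPM, or at 50 CPM for cells with both genes and within clusters, and log2 differences add 1 CPM; fold ratios in the text add none. Scripts were tested on simulated data. The members, the 25 gene lists and the comparisons were chosen with earlier results of these data known. Named are the tip genes, the members of the other lists that differed most, the genes with the 12 highest and 5 lowest correlations, the genes with the largest ratios between cell groups, neighbours and leading cluster genes. Alternatives were other thinning depths and seeds, UMI thresholds, pseudocounts, size factors and cell sets; leaving out shared barcodes, splitting by cluster 11 and putting BEC-like cells back into LEC were chosen after seeing the data.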

Additional observations from a re-analysis of the deposited data

Results flagged for a closer look

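UMIs of both genes were present in some cells outside the endothelium. The groups below are listed because more than 3 of their cells had a UMI. Those 3 cells are also the limit given as what a count of 0 allows, so passing it is no result. This limit is not a background share. Kit in the BEC sort fell short of the list, with a UMI in 2 of 22 melanocytic-like and 3 of 36 stromal-like cells. The 24 LEC-like cells of the BEC sort are not outside the endothelium and are given as a comparison. Of them 4.17% were positive for Tnfrsf9 at 5000 UMIs, which is 1 cell. In the BEC sort Tnfrsf9 was found in 30.6% of 36 stromal-like cells, where a count of 0 allows 8.33%; 1 cell held 47.9% of the UMIs, and 11.1% of cells were positive at 5000 UMIs. It was found in 18.2% (5.19 to 40.3%) of 22 melanocytic-like cells of the BEC sort, where a count of 0 allows 13.6%. There 1 cell held 66.7% of the UMIs, and 4.55% of cells were positive at 5000 UMIs, which is also 1 cell. In the LEC sort Tnfrsf9 was found in 4.88% of 369 melanocytic-like cells, where a count of 0 allows 0.813%, but in 0.542% at 5000 UMIs, which is below the 0.876% of LEC-like cells. Kit was found in 1.36% of the same 369 cells, and in 0.813% at 5000 UMIs, beside 0.292% of LEC-like cells. The source of these UMIs was not tested.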

How the results depend on the processing

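Of 44 alternatives of 7 results none reversed a direction, 23 stayed within the counting interval or spread and 21 moved beyond it. A share of cells cannot change sign, so the alternatives of the Tnfrsf9 and Kit shares could not reverse. The Tnfrsf9 log2 ratio of BEC over LEC was 4.03 among endothelial cells when BEC-like cells were left out of LEC and 3.23 when they were kept, and that of Kit was 3.51 with 0.1 CPM added. The share of BEC-sort cells with Tnfrsf9 was 12.8% at 2000 UMIs, 32.0% without thinning and 11.1% at 2 UMIs or more; for Kit these were 3.50%, 15.1% and 2.20%. The tip difference (log2) for Tnfrsf9 was 0.34 over all BEC-sort cells, 0.42 at 2 UMIs or more, 0.36 without Igfbp3, 0.28 without thinning, 0.25 without cluster 11 and 0.66 within it. For Kit it was 0.41 at 2 UMIs or more, 0.53 without Igfbp3, 0.35 without thinning, 0.43 without cluster 11 and 0.11 within it. The co-detection difference was 2.46 points at 2000 UMIs and 9.13 points without thinning. Other size factors shifted all genes by 0.06 on the log2 scale. Causes were not tested beyond what each alternative changes. No paired analysis was possible because the columns of the matrix carry no library number, and no library could be left out for the same reason. Depth limits Kit most: 1 UMI equals 0.0140 CPM of the BEC sort and 0.0169 CPM of the LEC sort, and a cell without a UMI may still express it.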
